A study of Mus musculus with 9 samples.

Results

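The genes described here are 9 primary granule genes of myeloid progenitors: Mpo, Elane, Prtn3, Ctsg, Ctsc, Prss57, Ms4a3, Serpinb1a and Srgn. They were chosen by gene symbol, and all 9 were found among the 23317 gene rows of the count table. Low-input RNA sequencing had been done on wild-type mouse bone marrow cells labelled as haematopoietic stem cells (HSCs), which give rise to the whole blood system. Its 3 groups were young HSCs, old HSCs, and old HSCs treated with ABC294640, which the submitters describe as a specific inhibitor of SphK2, a kinase that phosphorylates sphingosine. Each group had 3 libraries of 1500 sorted cells. The protocol gives ages of 2 to 4 months or 20 to 24 months, read here as young and old. Sex, the sort markers, the number of mice per library, and the dose, route and duration of ABC294640 were not stated in the labels. No label says that replicates came from separate mice, so the p-values below measure the spread between these libraries, which may be technical.

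Primary or azurophil granules are the first granules made as a myeloid progenitor turns into a promyelocyte, and their proteins store the antimicrobial arsenal of the neutrophil. Their transcripts are made early, peak in granulocyte-monocyte progenitors and promyelocytes and are shut off in mature neutrophils, which keep the proteins. The proteoglycan serglycin holds some of the granule proteases. Neutrophil elastase, proteinase 3 and cathepsin G are made as inactive serine proteases, are activated by the dipeptidase cathepsin C and are inhibited in the cytosol by the serpin that Serpinb1a encodes. Transcription factors of the C/EBP, ETS, RUNX and MYB families are known to act on their promoters.

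Library totals ran from 16663445 to 23254115 counts, and all 9 genes passed the filter on low counts. Among HSC markers, Kit lay between 111.7 and 123.7 CPM (counts scaled to library size, the unit of all levels here), while Procr lay between 2.33 and 4.1 CPM and Slamf1 between 6.18 and 8.63 CPM. Cd48, which is absent from HSCs as classically sorted, lay between 229.9 and 301.1 CPM. None of the 20 HSC markers was at 0 in all libraries, which was also true of 11 stromal and endothelial genes. By edgeR at an adjusted p under 0.05, 12 of the 20 HSC markers were lower and 1 higher in old than in young HSC. DESeq2 called 10 of the 20. Over all tested genes, edgeR called 19.6% higher and 19.8% lower. The Y-linked gene Ddx3y lay between 0.664 and 1.18 CPM in the young libraries and between 32.3 and 44.7 CPM in both old groups, so age and the sex of the mice cannot be told apart in comparisons with young HSC.

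The stretches before the starts of 5 of the genes are shown first. Of these genes 4 rose with age and 1 fell, and all 5 held the motif marked below before their starts. Ms4a3 and Srgn, which also rose and were matched, did not hold it there and are not shown. The stretches come from RefSeq's promoter table for GRCm38.p6, in which 7 of the 9 genes were matched. Each runs 5′ to 3′ on the gene's own strand and stops before the first base of its window that GENCODE annotates as an exon. That of Prtn3 holds no exon base but lies inside the annotated gene, whose first base is further upstream. Capitals mark GAGGAA, a core bound by ETS factors such as PU.1, or its reverse complement TTCCTC. The stretches lie at chr11:87793534-87793580 on the plus strand for Mpo, chr10:79886062-79886246 on the plus strand for Elane, chr10:79879417-79879613 on the plus strand for Prtn3, chr14:56102575-56102824 on the minus strand for Ctsg and chr7:88277835-88278084 on the plus strand for Ctsc.
Mpo: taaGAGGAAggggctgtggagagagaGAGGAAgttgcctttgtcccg
Elane: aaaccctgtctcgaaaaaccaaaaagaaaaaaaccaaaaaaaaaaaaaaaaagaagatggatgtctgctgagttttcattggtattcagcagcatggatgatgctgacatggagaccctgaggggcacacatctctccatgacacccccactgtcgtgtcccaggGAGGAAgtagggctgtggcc
Prtn3: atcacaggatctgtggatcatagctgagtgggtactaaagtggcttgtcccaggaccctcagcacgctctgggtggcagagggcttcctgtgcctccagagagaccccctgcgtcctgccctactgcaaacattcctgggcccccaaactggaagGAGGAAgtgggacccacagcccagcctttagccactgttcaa
Ctsg: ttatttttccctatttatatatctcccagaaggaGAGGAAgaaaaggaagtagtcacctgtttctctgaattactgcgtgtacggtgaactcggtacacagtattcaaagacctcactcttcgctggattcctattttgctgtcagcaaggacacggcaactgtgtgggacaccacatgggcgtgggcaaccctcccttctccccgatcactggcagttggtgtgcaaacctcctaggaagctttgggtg
Ctsc: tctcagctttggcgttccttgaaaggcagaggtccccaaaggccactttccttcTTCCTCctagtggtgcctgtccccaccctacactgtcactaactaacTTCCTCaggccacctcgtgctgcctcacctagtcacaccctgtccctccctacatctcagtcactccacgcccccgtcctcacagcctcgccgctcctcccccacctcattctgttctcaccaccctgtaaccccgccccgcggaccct

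In the whole windows, 250 bases before to 50 after the start and 300 bases in all, GAGGAA on either strand was found for 6 of the 7 matched genes, and in 28.3% of all 32851 windows of the table. It began 85 bases before the start of Elane and 95 before that of Prtn3, the 2 neighbouring elastase-family genes. Mpo held it at 247 and 224 bases before its start, and Ctsg at 216. Ctsc, the gene that fell with age, held it as TTCCTC at 196 and 149 bases before its start, so the motif was not particular to the genes that rose. Ms4a3 held it 35 bases after its start, and neither window of Srgn held it. Distances are counted from the start in the promoter table, which for Mpo, Elane, Prtn3 and Srgn lies inside the gene as GENCODE annotates it.

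Of the other motifs searched on both strands, the C/EBP letters TTGCNNA were found for 3 of the 7 genes and in 37.1% of all windows. Ctsg held 3 of these matches, 108, 67 and 29 bases before its start, and Ms4a3 held 2. The RUNX letters TGNGGT were found for 3 genes and in 45.8% of windows, and the MYB letters AACNG for 6 genes and in 80.3%. One C/EBP match of Ms4a3, which begins 30 bases after the start, overlaps its GAGGAA. GC content ran from 44.7% for Ms4a3 to 60.7% for Prtn3, against a median of 52.7% over all windows. A match is a description of letters and was not tested for binding.

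Per kilobase of exon, Elane, Mpo, Prtn3 and Ctsg ranked between 1 and 24 among the 14227 tested genes in every library, and the primary granule genes held a larger share of counts in the old groups. Together the 9 genes held 3.64% ± 0.188 of counts in young HSC (SD, n = 3), 5.15% ± 0.0917 in untreated old and 4.97% ± 0.0502 in treated old HSC. The single young libraries gave 3.85%, 3.5% and 3.56%, the old ones 5.26%, 5.11% and 5.09%, and the treated ones 4.94%, 5.02% and 4.94%. The young libraries lay below all old and treated ones, and by this share of raw counts the 3 treated libraries lay below the 3 old ones. In summed CPM, however, the old libraries (51216 to 53758) and the treated ones (50753 to 51571) overlapped. In bulk libraries, fewer cells of a type and less RNA per cell cannot be told apart.

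In old versus young HSC, 8 of the 9 genes rose and Ctsc fell at an adjusted p under 0.05. Over all 14227 genes tested, 19.6% were called higher and 19.8% lower. Upper quartile scaling and library totals alone changed that balance over all genes, from 49.7% of calls higher to 31.4% and 32.2%, with the median of all genes at -0.12 on the log2 scale under both instead of -0.032. The calls of the 9 genes were the same under both. The median log2 fold change of the 9 genes was 0.59. The young and old libraries did not overlap for any of the 9, which held for 48.4% of all genes.

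Mpo (chromosome 11, 87793581 to 87804413, plus strand) encodes myeloperoxidase, which makes hypochlorous acid from hydrogen peroxide and chloride. Its level was 11796, 10892 and 11092 CPM in the young libraries, 17021, 16683 and 16688 in the old, and 16257, 16524 and 16091 in the treated old libraries. Every old and treated library lay above every young one, and every treated library lay just below every old one. Mpo rose in old HSC with a log2 fold change of 0.58 ± 0.034 (SE; 95% interval 0.51 to 0.65; edgeR adjusted p = 3.57e-11). Of its 31-base words 12.1% occur in other genes, most of them in Gm11505, an antisense gene that overlaps it.

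Elane (chromosome 10, 79886247 to 79888215, plus strand) encodes neutrophil elastase, mutations of which cause inherited neutropenia in humans. Its level was 12352, 10384 and 10698 CPM in young, 17008, 15665 and 16096 in old, and 15774, 15803 and 15573 in treated old libraries. Young replicate 1 stood above the other young libraries but still below all old ones. Elane rose by a log2 fold change of 0.54 ± 0.049 (95% interval 0.44 to 0.65; edgeR adjusted p = 1.92e-08). Per kilobase of exon, Elane ranked 3 to 4 among all tested genes in the young libraries and 1 in each old library.

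Prtn3 (chromosome 10, 79874476 to 79883174, plus strand) encodes proteinase 3 and lies next to Elane. Its level was 4982, 4160 and 4287 CPM in young, 7193, 6645 and 6780 in old, and 6347, 6714 and 6468 in treated old libraries. The order of the young libraries was that of Elane, with replicate 1 highest, and treated and old libraries overlapped. The rise with age had a log2 fold change of 0.62 ± 0.052 (95% interval 0.51 to 0.73; edgeR adjusted p = 7.42e-09).

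Ctsg (chromosome 14, 56099881 to 56102574, minus strand) encodes cathepsin G, the chymotrypsin-like protease of the trio. It stood at 2751, 2508 and 2618 CPM in young, 3966, 3644 and 3900 in old, and 3849, 4052 and 3821 in treated old libraries. All old and treated libraries were above the young, and old and treated libraries overlapped. Ctsg rose in old HSC by 0.55 ± 0.043 on the log2 scale (95% interval 0.46 to 0.64; edgeR adjusted p = 2.42e-09).

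Prss57 (chromosome 10, 79781474 to 79790961, minus strand) encodes neutrophil serine protease 4, an arginine-specific relative of the trio. It was far less abundant, at 285.6, 225.7 and 232.9 CPM in young, 446, 386.4 and 438.9 in old, and 410.8, 439.8 and 411.3 in treated old libraries. Young replicate 1 was again the highest young library, and the coefficient of variation of the young libraries, 13.2%, was the largest of the 9 genes. Prss57 rose by 0.77 ± 0.07 (log2; 95% interval 0.62 to 0.92; edgeR adjusted p = 2.53e-08). Of its 31-base words, 39.3% are shared with the overlapping gene Fstl3 on the other strand, which was at 1.35 CPM or less in every library.

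Ctsc (chromosome 7, 88278085 to 88310888, plus strand) encodes cathepsin C, the enzyme that activates the serine proteases. It was the exception, at 112.8, 123.9 and 123.3 CPM in young, 95.8, 98.6 and 94.7 in old, and 91.9, 93.4 and 92.9 in treated old libraries. The 3 groups did not overlap, with young highest and treated old lowest. Ctsc fell in old HSC with a log2 fold change of -0.32 ± 0.049 (95% interval -0.42 to -0.21; edgeR adjusted p = 3.85e-05). Per kilobase it ranked 2196 to 2349 among tested genes in the young and 2734 to 2825 in the old libraries.

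Serpinb1a (chromosome 13, 32842092 to 32851185, minus strand) encodes an inhibitor of elastase, proteinase 3 and cathepsin G that protects neutrophils from their own proteases. It stood at 1041, 1069 and 1060 CPM in young, 1949, 1918 and 1947 in old, and 1934, 1866 and 1948 in treated old libraries. The spread within each group was small, and the young group lay far from the others. Its rise, 0.88 ± 0.037 on the log2 scale, was the largest of the 9 genes (95% interval 0.80 to 0.95; edgeR adjusted p = 1.54e-13). Its close relative Serpinb1b, with which it shares 31-base words, was at 0.147 CPM or less in every library.

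Srgn (chromosome 10, 62493833 to 62527451, minus strand) encodes serglycin, the proteoglycan core on which some granule proteases are packed. Its level was 2166, 2347 and 2360 CPM in young, 3377, 3499 and 3491 in old, and 3555, 3437 and 3622 in treated old libraries. Young replicate 1, the highest for the proteases, was the lowest young library for Srgn, and old and treated libraries overlapped. Srgn rose by 0.59 ± 0.04 (log2; 95% interval 0.51 to 0.68; edgeR adjusted p = 2.31e-10).

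Ms4a3 (chromosome 19, 11629496 to 11640851, minus strand) encodes a membrane protein used to trace the progeny of granulocyte-monocyte progenitors. It stood at 1659, 1678 and 1662 CPM in young, 2701, 2677 and 2714 in old, and 2714, 2642 and 2726 in treated old libraries. The coefficient of variation was 0.614% in young and 0.687% in old libraries, the smallest of the 9 genes in both groups. The rise was 0.70 ± 0.035 (log2; 95% interval 0.62 to 0.77; edgeR adjusted p = 2.2e-12).

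**Figure D1:**
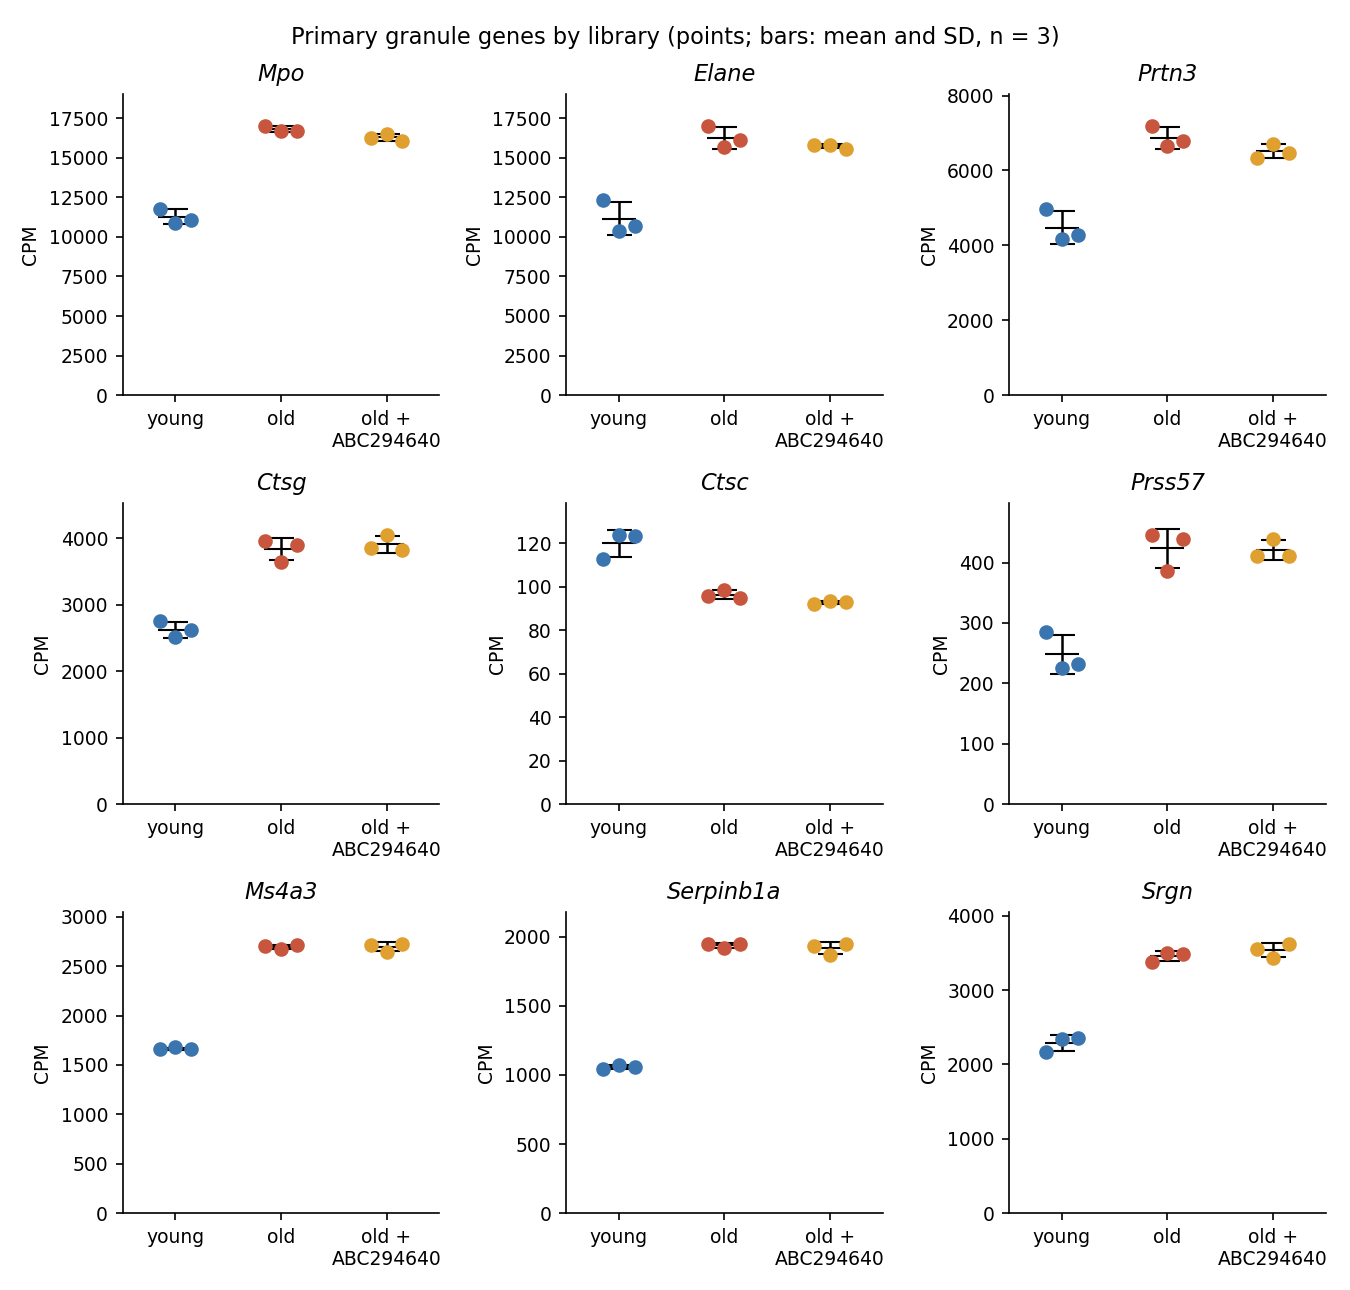
Level of each primary granule gene in CPM in the 3 young, 3 old and 3 ABC294640-treated old libraries (points), with mean and SD. For 8 genes the young libraries lie lowest, and for Ctsc they lie highest, at 112.8 to 123.9 CPM.

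Ratios of counts within a library, which do not depend on scaling, showed that the 9 genes did not move by one common factor. Elane, Prtn3 and Ctsg together gave 19.3, 16 and 16.6 counts per Serpinb1a count in the young libraries, 14.5, 13.5 and 13.7 in the old, and 13.4, 14.2 and 13.3 in the treated old libraries. Protease counts per inhibitor count were thus lower in every old library than in every young one, and old and treated libraries overlapped.

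Per Ctsc count, the same 3 proteases gave 178.1, 137.6 and 142.8 counts in young libraries, 294.1, 263.3 and 282.8 in old, and 282.6, 284.3 and 278.3 in treated old libraries. The mean was 152.9 ± 22 in young and 280.1 ± 15.6 in old HSC (SD, n = 3). Protease counts per activator count were thus higher in all old libraries than in all young ones, with old and treated libraries again overlapping. Prtn3 gave 0.402 ± 0.00155 counts per Elane count in young, 0.423 ± 0.00149 in old and 0.414 ± 0.0113 in the treated group. This ratio was tight within the young and within the old group, whose libraries did not overlap, and the levels of both genes varied together. Mpo counts per Elane count, at 1.01 ± 0.0511 in young and 1.03 ± 0.0322 in old HSC (SD, n = 3), overlapped between these groups. These ratios are descriptions with no test.

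**Figure D2:**
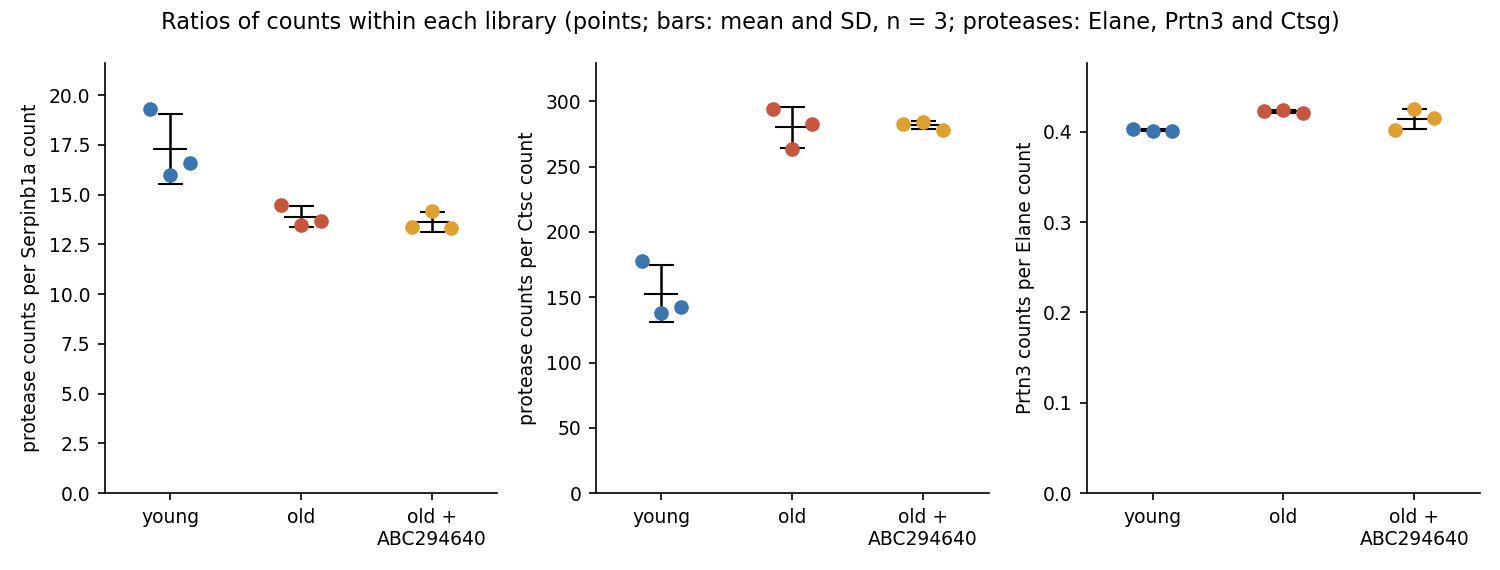
Counts of Elane, Prtn3 and Ctsg per Serpinb1a count (left) and per Ctsc count (middle), and of Prtn3 per Elane count (right), in each library (points) with mean and SD. The left ratio falls from a mean of 17.3 in young to 13.9 in old HSC, and the middle one is higher in old HSC.

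In treated versus untreated old HSC, none of the 9 genes was called by edgeR or DESeq2, and none had an unadjusted p under 0.05 by either tool. Over all genes, edgeR called 1.19% in this comparison, and 8.83% had an unadjusted p under 0.05. Leaving out treated replicate 2 lowered the counts over all genes from 109 higher and 61 lower to 17 and 31. Leaving out treated replicate 1 gave 31 and 38, old replicate 1 gave 52 and 39, and old replicate 2 gave 40 and 37. No granule gene was called in any of these fits.

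The log2 fold changes with ABC294640 ran from -0.078 for Prtn3 to 0.034 for Srgn, with edgeR adjusted p from 0.731 to 0.996. The 95% intervals of the 9 genes all lay between -0.19 and 0.13, so larger changes in either direction were outside them. Mpo had a log2 fold change of -0.044 ± 0.034 and Ctsc of -0.055 ± 0.05, and for these 2 genes every treated library was below every old one. Over all genes, 7.13% had treated libraries wholly below the old ones.

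Treated old versus young HSC gave the same calls for the granule genes as untreated old versus young, 8 higher and Ctsc lower, where 19.1% of all genes were called higher and 18.5% lower. Upper quartile scaling and library totals alone moved the share of all calls that were higher from 50.8% to 30% and 28.7%. Both comparisons share the young libraries. Side by side with the untreated values above, the treated ones were 0.53 for Mpo, 0.50 for Elane, 0.54 for Prtn3, 0.57 for Ctsg and 0.76 for Prss57 on the log2 scale. Ms4a3 stood at 0.69, Serpinb1a at 0.86, Srgn at 0.63 and Ctsc at -0.37.

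**Figure D3:**
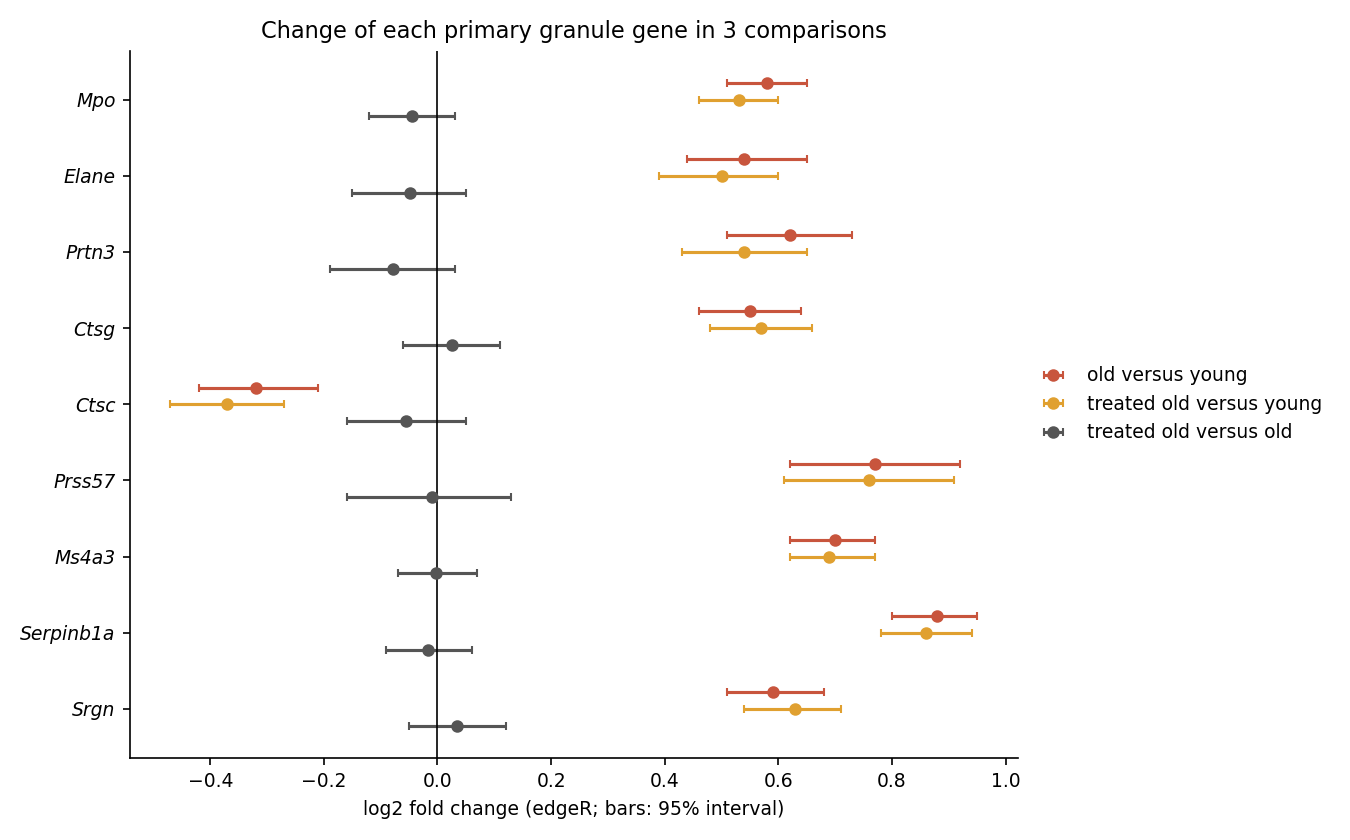
Log2 fold change of each primary granule gene with its 95% interval (edgeR) in the 3 comparisons. The changes with ABC294640 lie between -0.078 and 0.034 and their intervals all span 0, while both comparisons with young HSC lie away from 0.

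Of 12 transcription factors known for control of these genes, 5 rose and 2 fell in old versus young HSC. The shares of all tested genes to set beside this and the later list counts with age are 19.6% higher and 19.8% lower. The C/EBP factor Cebpb, which drives emergency granulopoiesis, stood at 34.8, 32.9 and 29.3 CPM in young and 80.3, 70.2 and 74.6 in old libraries, a log2 fold change of 1.21 ± 0.068 (edgeR adjusted p = 1.37e-11). Gfi1, a repressor needed for neutrophil rather than monocyte fate, rose by 0.86 ± 0.081 (adjusted p = 4.41e-08). Cebpe, which governs later granule stages, rose by 0.84 ± 0.074 (adjusted p = 1.76e-08), Cebpd by 0.69 ± 0.077 (adjusted p = 5.33e-07) and Spi1, which encodes PU.1, by 0.55 ± 0.05 (adjusted p = 2.32e-08).

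Irf8, which directs progenitors to monocytes and dendritic cells and restrains neutrophil output, fell. It stood at 123.9, 116.3 and 121 CPM in young and 45.4, 45.1 and 51.7 in old libraries, a log2 fold change of -1.35 ± 0.057 (edgeR adjusted p = 1.87e-13). The monocyte factor Klf4 fell by 0.19 ± 0.066 on the log2 scale (adjusted p = 0.0261). Its call was lost with DESeq2 (adjusted p = 0.0615), with no filter, with the 2 groups alone, in the test against a log2 of 0.2 (adjusted p = 0.553) and when young replicate 2 or 3 or old replicate 2 or 3 was left out. Cebpa, at 32.3 ± 0.54 CPM in young and 29.6 ± 0.0796 in old HSC (SD, n = 3), was not called (-0.13, adjusted p = 0.13), though upper quartile scaling, library totals alone and the stricter filter called it lower. Myb, Runx1, Cbfb and Rara were not called either, with log2 values of 0.10, 0.0035, 0.10 and -0.13, though Myb was called higher with no filter or without young replicate 3 or old replicate 1, and Cbfb without young replicate 2.

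With ABC294640, Cebpb was the only factor of these 12 called, where 1.19% of all tested genes were called. Cebpb stood at 49.4, 51 and 48 CPM in the treated libraries, below every old and above every young library. Its log2 fold change was -0.60 ± 0.067 against old HSC (edgeR adjusted p = 4.14e-05) and 0.61 ± 0.069 against young HSC (adjusted p = 7.2e-07). Irf8 in the treated libraries was 48.3, 46.3 and 48.2 CPM, within the range of the old ones.

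**Figure D4:**
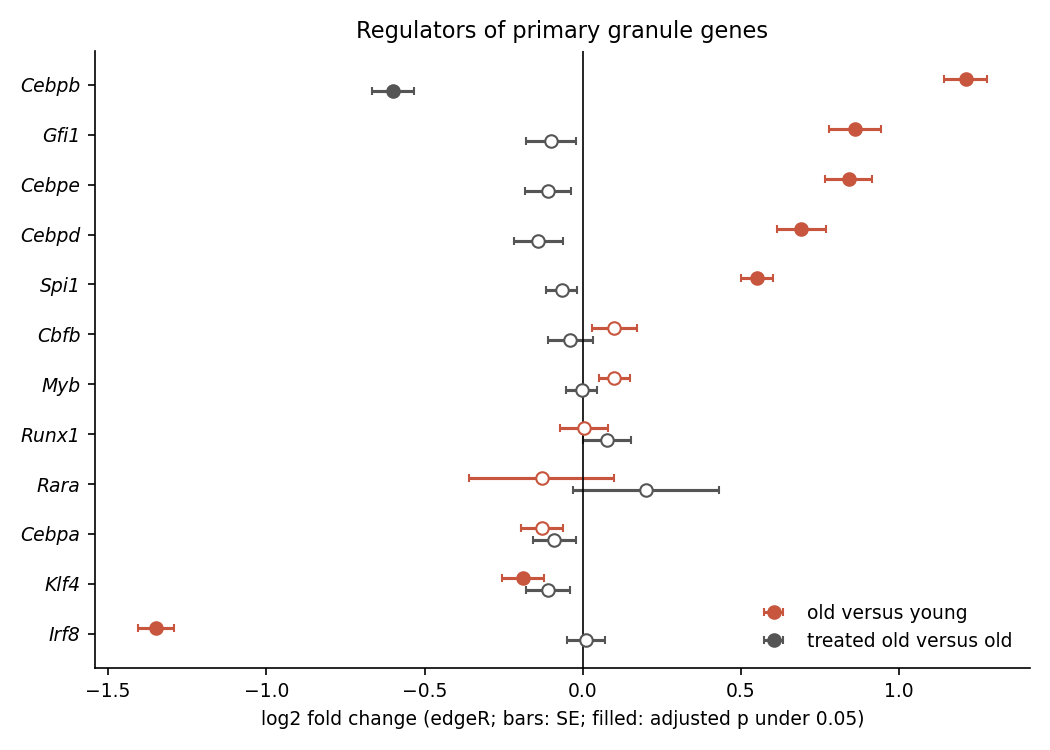
Log2 fold change with SE (edgeR) of 12 transcription factors in old versus young HSC and in treated versus untreated old HSC, with filled points at an adjusted p under 0.05. Cebpb is at 1.21 and Irf8 at -1.35 with age, and Cebpb, at -0.60, is the only filled point with treatment. Of all tested genes, 1.19% were called with treatment.

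Among other contents and membrane proteins of azurophil granules, most of which are shared with lysosomes, 10 of 16 tested genes rose and 3 fell in old HSC, with a median log2 fold change of 0.22. Cd63, a tetraspanin of the azurophil granule membrane, rose most clearly, by 1.03 ± 0.044 (edgeR adjusted p = 1.87e-13). Lamp2, a lysosomal membrane protein, rose by 0.51 ± 0.044 (adjusted p = 1.14e-08). Lyz2, the myeloid lysozyme that is also abundant in monocytes, fell with a log2 fold change of -0.51 ± 0.041 (adjusted p = 3.13e-09). None of the 16 was called with ABC294640 by edgeR or DESeq2, and none had an unadjusted edgeR p under 0.05. Over all tested genes, edgeR called 1.19% with ABC294640, and 8.83% had an unadjusted p under 0.05.

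Of 21 genes of granule sorting or inherited neutropenia, 10 rose and none fell, with a median of 0.18. Ap3s1 and Ap3m1, subunits of the AP-3 adaptor that carries cargo to lysosome-related organelles, rose by 0.54 ± 0.045 and 0.44 ± 0.06. M6pr, a mannose 6-phosphate receptor, rose by 0.49 ± 0.045 and Srp54a, of the signal recognition particle, by 0.76 ± 0.083 (edgeR adjusted p from 8.38e-06 to 5.97e-09 for these 4). Of 20 genes for the glycosaminoglycan chains of serglycin, 4 rose and 2 fell, where 19.6% of all tested genes were called higher and 19.8% lower. The chondroitin sulfotransferase Chst12 rose by 0.67 ± 0.062 and the heparan sulfate polymerase gene Ext1 fell with a log2 fold change of -0.79 ± 0.16.

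Protease inhibitors other than Serpinb1a moved in both directions, with 5 of 16 tested genes higher and 5 lower. Wfdc21 and Slpi, of the whey acidic protein family, rose by 1.23 ± 0.06 and 0.51 ± 0.047. Serpina3g and Serpina3f fell, with log2 values of -0.56 ± 0.047 and -1.02 ± 0.088. With ABC294640, the cathepsin inhibitor Cstb rose by 0.23 ± 0.055 (edgeR adjusted p = 0.0393). That call was lost with RLE size factors, with library totals alone, in the test against a log2 of 0.2 and when any 1 library other than old replicate 3 was left out. The cysteine protease inhibitor Stfa2 was at 0.529, 0.861 and 0.735 CPM in old and 0.174, 0.0616 and 0.154 CPM in treated libraries, and fell with a log2 fold change of -2.38 ± 0.55 (edgeR adjusted p = 0.0363). Its call was lost with no filter, in the test against 0.2 and when old replicate 1 or 3 or any treated library was left out, and DESeq2 gave it no adjusted p.

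Granule genes of other lineages were mostly lower in old HSC. Of 7 tested eosinophil granule and peroxidase genes, 5 were lower in old HSC and none higher, with a median of -1.08. Prg2, the eosinophil major basic protein, stood at 147.3 ± 4.03 CPM in young and 69.6 ± 3.89 in old HSC (SD, n = 3), and fell by 1.08 ± 0.051 on the log2 scale (edgeR adjusted p = 9.51e-13). Of 6 tested proteases of mast cell, basophil and lymphocyte granules, 3 fell and 1, Mcpt8, rose by 0.15 ± 0.05. Mcpt8 was no longer called with upper quartile scaling, library totals alone, the stricter filter, the test against a log2 of 0.2 or young replicate 3 left out.

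Markers of later neutrophils rose beside the primary granule genes. Of 18 secondary granule, tertiary granule and late neutrophil genes, 11 rose and none fell, and their summed level was 5471 to 5681 CPM in young and 8864 to 9916 in old libraries. S100a8, a calgranulin subunit, rose by 1.03 ± 0.045 and Cd177, a neutrophil surface protein, by 2.02 ± 0.077. Lcn2, the siderophore binder of specific granules, rose by 1.24 ± 0.046. The chitinase-like gene Chil3 rose by 1.03 ± 0.049 with age and fell with ABC294640, with a log2 fold change of -0.36 ± 0.048 (edgeR adjusted p = 0.000402). The treatment call of Chil3 was lost in the test against a log2 of 0.2 (adjusted p = 0.134).

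Monocyte genes went the other way, with 12 of 16 lower and 1 higher in old HSC and a summed level of 3150 to 3378 CPM in young and 2125 to 2282 in old libraries. Ly6c2, Ms4a6c, Cd74 and Mpeg1 fell, with log2 values of -0.55, -1.06, -1.20 and -1.18. Of 20 other genes of granulocyte-monocyte progenitors, 11 rose and 7 fell, and their summed levels in young and old libraries overlapped. Igsf6 and Clec12a, myeloid receptors, rose by 0.88 and 0.76, while Ly86 and Lgals1 fell, with values of -1.40 and -0.98.

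Lists of other lineages moved as well. The lists share some genes, so their counts are not independent. Gzmb and Mcpt8 are in both the mast cell and basophil list and the list of granule proteases. Ly6c2 is in both the monocyte list and that of granulocyte-monocyte progenitors. Of 13 erythroid genes 11 were lower and 1 higher in old HSC, of 9 megakaryocyte genes 6 were lower, of 11 mast cell and basophil genes 6 were lower and 1 higher, and of 8 stromal genes 5 were lower. Of 9 B cell genes 2 were higher and 2 lower, with the summed level at 341.3 to 385.2 CPM in young and 677.3 to 762.5 in old libraries. The 2 that rose were the immunoglobulin genes Igkc and Jchain. Of 7 T and NK cell genes 2 were higher and 1 lower. The summed erythroid level was 1811 to 1852 CPM in young and 1030 to 1034 in old libraries. The part of these lineage differences in the rise of the primary granule genes was not tested.

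**Figure D5:**
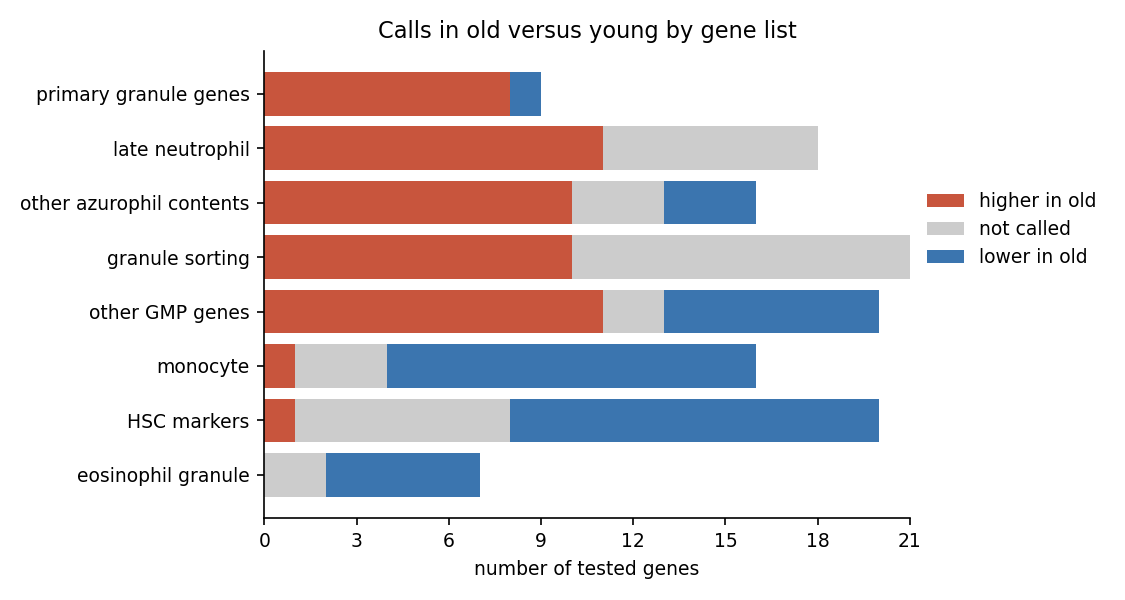
Number of tested genes called higher, not called or called lower in old versus young HSC (edgeR adjusted p under 0.05) in 8 gene lists, with GMP for granulocyte-monocyte progenitor. Primary granule genes are 8 higher and 1 lower, and monocyte genes 1 higher and 12 lower.

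The genes beside the granule genes did not rise as a group. The nearest tested genes on either side of the 9 were 16 genes, some of them far off, with a gap of up to 156264 bases, from Ctsg to Gzmb. In old HSC 4 of the 16 were higher and 4 lower, with a median log2 fold change of 0.09. Over all tested genes 19.6% were called higher and 19.8% lower. Plppr3, which overlaps Prtn3 on the other strand and is, after Prtn3 itself, the nearest tested gene before Elane, stood at 31 ± 3.08 CPM in young and 31.5 ± 1.92 in old HSC (SD, n = 3). Cfd, an adipocyte and myeloid serine protease gene 2638 bases after Elane, was at 0.57 ± 0.206 and 0.513 ± 0.17 CPM. Gzmb, on the other side of Ctsg from Mcpt8, fell with a log2 fold change of -0.86 ± 0.22 (edgeR adjusted p = 0.00422), and Palm, next to Prss57, rose by 0.46 ± 0.076 (adjusted p = 7.03e-05).

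The genes most like the granule genes across the 9 libraries were found by the root-mean-square difference of centred log2 CPM from the median of the 9, among 7864 genes of at least 10 CPM. Hmga1, a chromatin architectural gene, was nearest at 0.0187, followed by G6pdx, which starts the pentose phosphate pathway, at 0.0227. Mfsd10, a transporter family member, was at 0.0247, Herpud1, of degradation at the endoplasmic reticulum, at 0.0263, and Gstm1, a glutathione transferase, at 0.0312. On the same scale Mpo itself stood at 0.0165, Ctsg at 0.0351, Elane at 0.0442, Serpinb1a at 0.144 and Ctsc at 0.441. These distances are descriptions, and Mpo, Ctsg and the others helped to set the median they are measured from.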

How the data were processed

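Per the submitters' processing notes, the authors used the tools HTSeq 0.10.0 and STAR 2.6.1d, Trim Galore 0.6.2, edgeR 3.24.3 and build mm10 to make the deposited table, without a stated role for each. Its values, as deposited by the authors, were taken as an estimated count (expected count) per gene in 9 libraries, since 56.04% of non-zero values were whole within 1e-9, and were rounded before testing. No source says that strand was counted, so overlapping genes cannot be told apart. Genes were located in GENCODE mouse release 21 (GRCm38).

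The test was that of edgeR 4.0.16 under R 4.3.3 (TMM, its default filter, quasi-likelihood, 1 fit of 9 libraries, Benjamini-Hochberg over 14227 genes, called at 0.05), after tests on simulated data. The first simulated draw exceeded the limit set on the share of false calls. That limit was then applied to the mean of several draws. Few genes were changed in the simulated data, unlike the many called with age, so they do not cover that setting. CPM used TMM-scaled library sizes. Precision is limited by 3 libraries a group. Libraries of 1 group differed by more than sampling noise (chi-square per degree of freedom 2.23 to 8.36), so none was counted as another library sequenced again. Separate libraries from a shared pool of cells could differ as much, so this cannot show that they came from separate mice.

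The 9 genes and all lists were chosen with earlier results of these data known. Named were the 9 genes, all regulators, up to 4 genes of a list by smallest p with age and up to 2 with treatment, the nearest tested neighbours and the 5 most alike genes. Some results that this rule named are left out here. Procr, Slamf1, Kit, Cd48, Ddx3y, Fstl3 and Serpinb1b are named as checks, outside that rule. Alternatives were other scalings, DESeq2 1.42.0, other filters, a test against a log2 of 0.2, 2 groups alone, a replicate block, library sizes without the 9 genes, and leaving out each library. Leaving libraries out of the ratios was added after the data were seen.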

Additional observations from a re-analysis of the deposited data

How the results depend on the processing

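The calls of the 9 granule genes in each of the 3 comparisons were the same under every alternative run, with log2 fold changes in old versus young HSC of 0.79 to 0.92 for Serpinb1a and -0.40 to -0.27 for Ctsc. Correlations of same-numbered deviations were 0.0628, 0.132 and 0.0636 between young and old libraries, where different-numbered ones ran from -0.0964 to 0.0351. Same-numbered ones with treated libraries ran from -0.0808 to -0.0205. Whether the replicate numbers pair the young and old libraries is not settled by these values. With the replicate block the granule genes were again 8 higher and 1 lower, 0 called, and 8 higher and 1 lower. The block gave 2799 genes higher and 2783 lower with age, 128 and 67 with ABC294640, and 2777 and 2578 for treated old versus young. Of the other genes named, Stfa2 lost its treatment call with the block (adjusted p = 0.0624). Counts over all genes moved more. In old versus young HSC, upper quartile scaling left 1823 higher, and a test against a log2 of 0.2 left 1277 higher and 1663 lower. In treated versus untreated old HSC, no filter gave 219 and 114, 2 groups alone 164 and 96, the test against 0.2 gave 8 and 18, and leaving out 1 library 17 to 121 higher and 31 to 55 lower. In treated old versus young HSC, upper quartile scaling gave 1633 higher, library totals 1581 and the test against 0.2 gave 1169, with 1706 lower, and the stricter filter 1732 lower. Without mitochondrial genes in the total, the 9 genes held 3.87%, 5.46% and 5.27% of counts in young, old and treated old HSC. Uncalled changes that turned sign were those of Ctsg (-0.012 to 0.051), Prss57 (-0.076 to 0.029) and Ms4a3 (-0.011 to 0.0069) with treatment when 1 library was left out, and with age those of Rara (-0.26 to 0.095) and Runx1 (-0.032 to 0.10), the latter also -0.085 with upper quartile scaling, -0.081 with library totals and -0.041 with the stricter filter. The cause of these shifts was not tested.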
